A study of Mus musculus with 6 samples.

Results

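The peaks described here are those of thyroid hormone receptor α (TRα) on mouse chromosomes 1 to 19 with a high local background. For every peak of a list the local background, the number of input fragments expected at the summit, was recovered from the deposited pileup and fold, and divided by the lowest background of the same list. Peaks with a ratio of at least 5 were kept, which gave 765 of 466412 autosomal peaks (0.164%) and, merged over the 6 lists by an overlap of 1 bp, 456 regions against 434808 regions for all autosomal peaks. Since background, pileup and fold entered the choice, their levels are given as a description and not as a test of the members.

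TRα is a nuclear receptor that binds DNA with and without thyroid hormone and regulates genes of contraction and metabolism in muscle. Its binding in the gastrocnemius, a large muscle of the calf, was read by ChIP-seq, in which protein-bound DNA is recovered with an antibody and sequenced, next to input, chromatin not exposed to the antibody. That the background came from an input of each mouse is read from the deposited peak names, which set every library against one of the same mouse marked IN. Groups were 6-month, 15-month and 21-month animals, with 2 separate mice in each, here called the pair of that age, and replicate 1 is always given first. The labels name no strain, sex, genotype or treatment for any group.

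Peak callers weigh the immunoprecipitated fragments at a site against input, because fragments are not recovered or mapped evenly along a genome. Arrays of near-identical sequence, such as the satellite repeats next to mouse centromeres, ribosomal DNA and recently duplicated gene families, often appear in an assembly in fewer copies than the animal carries. Reads of all copies then stack on the copies that are shown, in input and immunoprecipitated DNA alike. Mouse chromosomes have the centromere at one end, and their assembled sequence starts near it. The repeat class and the gene part at the positions below were not analysed here, and positions are GRCm39 coordinates counted from 1.

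The lists held 114 and 196 high-background peaks at 6 months, 111 and 100 in the 15-month mice, and 110 and 134 at 21 months, replicate 1 before replicate 2. Replicate 2 at 6 months had the most, and the other 5 lists lay close together. That list also had the lowest genome-wide background of the 6, 0.633 fragments, so a ratio of 5 was reached there at 3.17 fragments, while replicate 1 of that age needed 5.98 and the remaining lists 3.48 to 4.12. With the limit set at 6 fragments in every list (an alternative added once the values were known), the counts ranged from 57 to 114. The 114 were those of replicate 1 at 6 months, which kept all its members. Replicate 2 of that age no longer stood above it, so its lead was not kept at a limit equal in fragments. At a limit equal in ratio, of at least 10, the counts ranged from 41 to 80. Replicate 2 at 6 months again had the most. The lowest background over the length of the shortest peak was 3.23 to 5.49 fragments per kb in the lists. Total depth is not given by peak lists, and absence of a peak does not show absence of signal.

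Most members lay near the limit. Of the members, 67 and 116 for the 6-month pair, 57 and 52 for the 15-month pair, and 69 and 69 for the 21-month pair had a ratio under 10. The median ratio per list lay between 7.5 and 9.79, and the maximum ranged over 33059 to 36068, except in replicate 1 at 6 months with 2552. Of regions with a peak in all 6 mice, those whose highest ratio was nearest the limit were these. A region on chromosome 17, 9249611 to 9250096, was just inside, with a highest ratio of 5.46. A region on chromosome 7, 74644179 to 74644696, was just outside, with 4.86. Their folds ran from 50.7 to 595.5 and from 23.5 to 120.5.

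Members with the highest background had low folds, and members with high folds had moderate background. Fold is the ratio of immunoprecipitated to background fragments at the summit, each plus 1. Folds and q values are the authors' own values for each peak. Of the 765 peaks, 721 had a fold under 10, the highest of them 9.51, and 44 peaks in 19 regions had a fold of at least 10, the lowest of them 12.2. The 44 peaks of high fold had ratios from 5.24 to 22.7, with a median of 7.62. The 107 peaks with a ratio of at least 100 had folds from 1.13 to 2.98, with a median of 1.68. Background is the denominator of fold, so both measures are tied by construction.

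**Figure D1:**
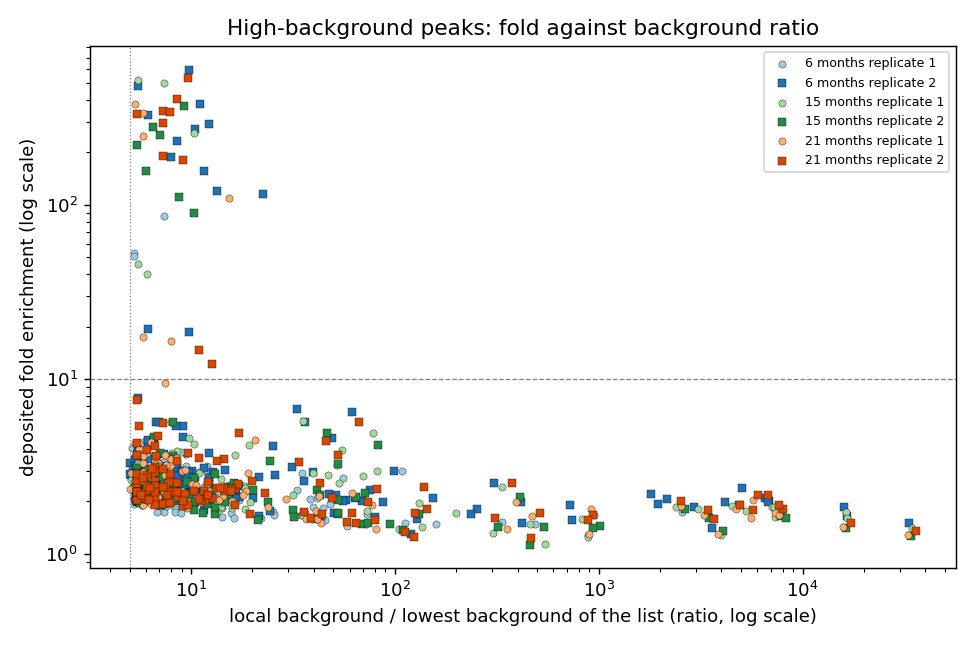
Deposited fold (vertical axis, log scale) against background ratio (horizontal axis, log scale) for the high-background peaks, 1 point per region and mouse. The dotted line marks the ratio limit of 5 and the dashed line a fold of 10; no peak with a ratio of at least 100 exceeds a fold of 2.98.

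Peaks with q of at most 0.05 made up 40.4% and 46.4% of the members at 6 months, 45.9% and 40% in the 15-month mice, and 43.6% and 44.0% at 21 months. Over all peaks the shares were 1.16% and 3.05% for the 6-month pair, 1.63% and 4.27% for the 15-month pair, and 2.41% and 1.9% for the 21-month pair. The q value is computed from the same pileup and background that chose the members, so nothing is read from this gap. The median pileup of the members was 18 to 28 fragments, against 4 or 5 for the other autosomal peaks. The median fold was 2.12 to 2.46 for members and 2.73 to 3.14 for the other autosomal peaks. Median width was 259 to 294 bp for members and 248 to 277 bp for the others.

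The highest backgrounds of all were at a site on chromosome 2, 98497052 to 98497559. Its ratio was 33124 in replicate 2 for the 6-month pair, 34578.5 and 34017 for the 15-month pair, and 33059 and 36068 for the 21-month pair. The site had no peak in replicate 1 at 6 months, and the other 5 mice differed by a coefficient of variation of 3.62%. Pileups there ran from 31396 to 35511 fragments, and folds from 1.27 to 1.5. The summits of the 5 mice lay within 1 bp of each other. A second site 4 kb before it, 98492598 to 98492810, had ratios from 3585 to 4088 in the same 5 mice.

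The start of chromosome 9 held a block of 14 high-background regions within 37.8 kb, from 3000404 to 3038244. This end of chromosome 9 is known for copies of the major satellite, the main repeat of mouse pericentromeres, and whether the peaks lie in those copies was not tested. All 59 peaks of the 6 lists in this block were members and all had q of at most 0.05, with ratios from 308 to 17316 and folds from 1.26 to 2.55. The lists held 4 and 14 of these peaks at 6 months, 12 and 8 in the 15-month mice, and 10 and 11 at 21 months. The 2 mice of 6 months held the lowest and the highest number.

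At 3024081 to 3024580, the site of highest median ratio in the block, the ratio was 16422 in replicate 2 for the 6-month pair, 16603 and 16248 for the 15-month pair, and 15811 and 17316 for the 21-month pair. The 5 values had a coefficient of variation of 3.35%, and replicate 1 at 6 months had no peak. The site at 3020856 to 3021106 showed the same absence, with ratios from 6840 to 8267 in the other 5 mice. At 3025695 to 3025958 all 6 mice had a peak. The ratios there were 2552 and 2159 for the 6-month pair, 2395 and 2644 for the 15-month pair, and 2528 and 2524 for the 21-month pair. The folds at this site were 1.74 and 2.07, 1.87 and 1.80, and 1.87 and 2.01 in the same order, so the ratios of the 3 ages overlapped, and the folds of the 6-month mice spanned those of both other ages.

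Replicate 1 at 6 months had peaks at 4 of the 14 sites, among them the 3 of lowest median ratio. Besides the site at 3025695 these were 3032122 to 3032736, with a median ratio of 885 over the 6 mice, 3033729 to 3033977, with 385, and 3037873 to 3038244, with 479. At these 3 the ratios of replicate 1 at 6 months were 887, 411 and 488, inside the range of the other 5 mice. Its list had 1 member with a ratio of 1000 or more, where the remaining lists had 8 to 14. Its pileup at 3025695 was the highest of the 6, 5313 fragments against 2829 to 3916. Its strongest folds were also lower, with a highest member fold of 86.3 against 371 to 596 in the other lists.

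**Figure D2:**
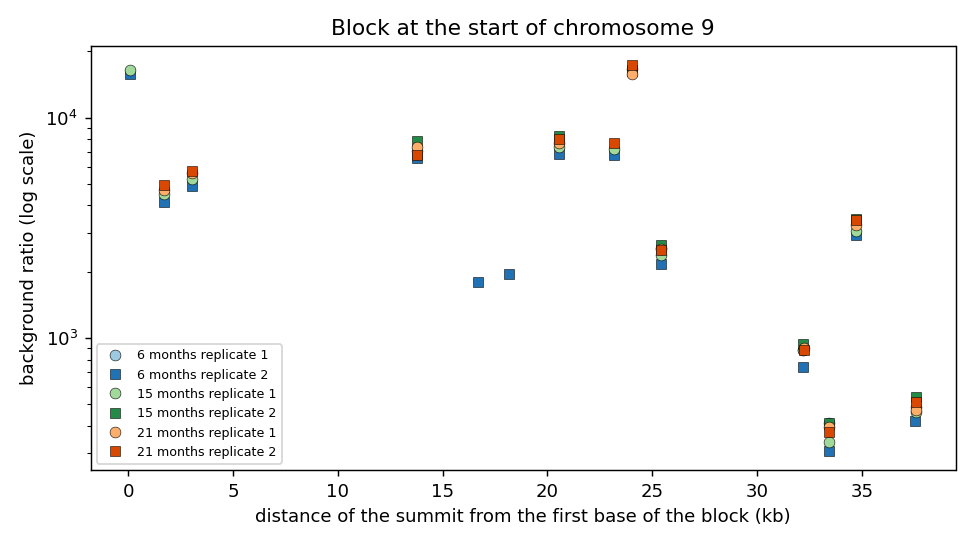
Background ratio (log scale) against distance of the summit from the first base of the block at the start of chromosome 9 (kb), 1 symbol per mouse. Sites keep their level across mice, from 308 at the lowest site to 17316 at the highest; replicate 1 at 6 months has 4 of the 14 sites.

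A single site on chromosome 9 away from the block, 35216618 to 35216838, had a ratio of 5034 in replicate 2 at 6 months, 7340 in replicate 1 of 15 months, and 5741 and 6056 at 21 months. The other 2 mice had no peak there. At the far end of the same chromosome, 5 regions lay within 4.84 kb, from 124254289 to 124259128, with ratios from 51.7 to 546. Replicate 2 at 6 months and replicate 2 at 21 months had 5 peaks each in the group, and replicate 1 at 21 months had none.

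Chromosome 17 carried 4 of the 12 regions with a high-background peak in every mouse. At 13772876 to 13773302 the ratios were 951 and 727 for the 6-month pair, 832 and 1010 for the 15-month pair, and 913 and 935 for the 21-month pair. The region at 13770980 to 13771552, close before it, had ratios from 253 to 357. Folds were 1.45 to 1.90 and 1.32 to 1.80, and all 6 mice had q of at most 0.05 at both. The region at 3072683 to 3072945, near the start of the chromosome, had ratios from 31.6 to 43.5 and q of at most 0.05 in 1 mouse only.

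The regions with a high-background peak in all 6 mice on chromosomes 16, 7, 5 and 1 had lower median ratios than those given so far and varied more. The fourth region of chromosome 17, at 4676440 and described below, had a median of 10.4 and varied most, with a coefficient of variation of 49.8%. On chromosome 16, 40434797 to 40435038, the ratios were 35.1 and 25.1 for the 6-month pair, 19.4 and 41.4 for the 15-month pair, and 20.6 and 17.1 for the 21-month pair. The 15-month mice held the highest and the next to lowest value, and both 6-month mice were above both 21-month mice. On chromosome 7, 59398801 to 59399176, they ran from 6.73 to 12.5, on chromosome 5, 101135774 to 101136037, from 5.59 to 15.3, and on chromosome 1, 124895557 to 124895847, from 5.15 to 12.9. Folds at these 4 regions lay between 2.18 and 5.43. The 13 regions in 5 or 6 lists with a median ratio of at least 100 had coefficients of variation of 3.35% to 11.4%. The 13 with a lower median had 9.04% to 49.8%.

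**Figure D3:**
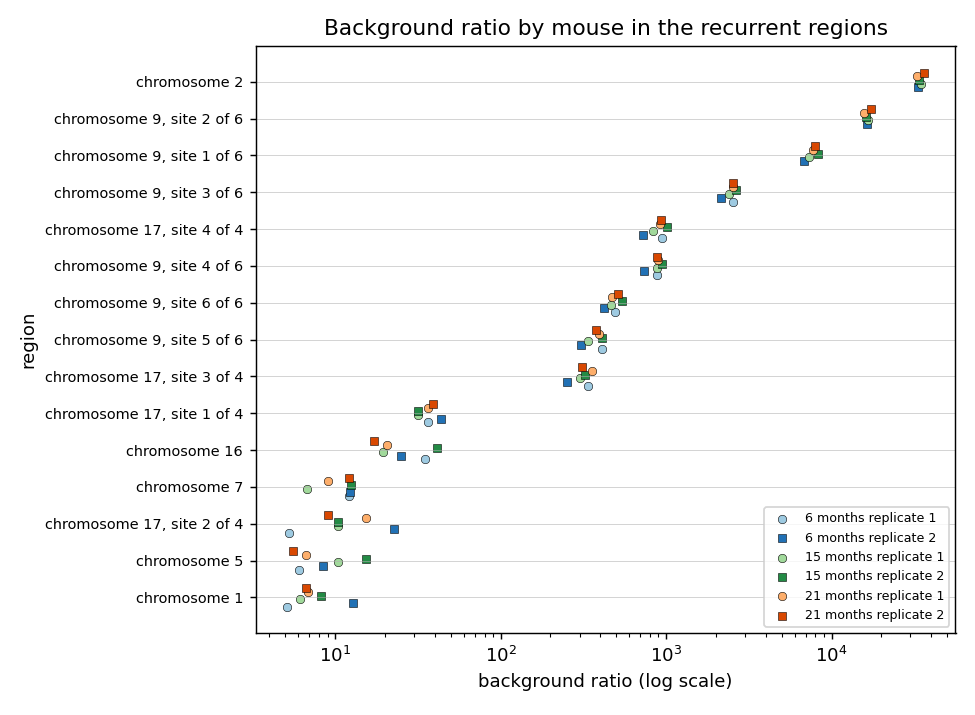
Background ratio (log scale) in each mouse for the 12 regions with a high-background peak in every mouse and the 3 highest of those in exactly 5 mice, sites numbered along each chromosome. Symbols of one region lie close together at ratios above 100 and mostly spread at ratios under 50. The chromosome 17 region at 3072683, with a median of 36.4, spreads little (coefficient of variation 12.3%).

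Where 2 mice both had a member, their ratios were described over the 25 to 56 regions in common, and Pearson's r of the log10 ratio was 0.972 to 0.997 for the 15 pairs of mice. For shared regions with both ratios under 100 it was 0.852 to 0.941, over 16 to 35 regions. Adding regions where 1 of the 2 mice had a peak under the limit gave 0.909 to 0.989, over 43 to 84 regions. Regions without a peak in 1 of the mice do not enter. These are descriptions across regions, on the ratio that chose the members, and the regions share the assembly and the input protocol. The median difference in ratio was 0.13 to 0.35 on the log2 scale where both had a member, and 0.20 to 0.49 with the lower peaks.

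The 19 regions of high fold, grouped by a member fold of at least 10, were scattered. They lay on 12 chromosomes, and none fell in a cluster of high-background regions. Of the 19, 16 had a TRα peak of some ratio in all 6 mice, against 0.0241% of all autosomal regions. Autosomal regions with a peak in all 6 mice numbered 105, and 78 of them held no member. Regions of like fold without a member were not compared, so the 16 are not read as a trait of members. Only 1 of the 19 passed the ratio limit in all 6. That region, on chromosome 17, 4676440 to 4676874, had ratios of 5.24 and 22.7 for the 6-month pair, 10.4 and 10.4 for the 15-month pair, and 15.4 and 9.11 for the 21-month pair. Its folds were 53.1 and 116 for the 6-month pair, 257 and 89.4 for the 15-month pair, and 109 and 180 for the 21-month pair. Both mice of 6 months, the lowest and the highest in ratio, bracketed all others.

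Among regions with a member in at least 3 lists, the highest median fold of the member peaks was on chromosome 19, 40496848 to 40497340, with ratios of 3.15 and 9.81 for the 6-month pair, 7.34 and 9.27 for the 15-month pair, and 2.12 and 9.72 for the 21-month pair. Its folds were 155 and 596, 502 and 371, and 1543 and 532 in the same order. The highest fold, in replicate 1 at 21 months, went with the lowest ratio. A region with a member in 1 list, on chromosome 3, 19920765 to 19921295, had folds from 111 to 739 over the 6 mice. On chromosome 17, 50247967 to 50248506, ratios were 1.59 to 11.0 and folds 269 to 520. On chromosome 6, 140638273 to 140638653, ratios were 1.05 to 8.72 and folds 112 to 374. Replicate 1 at 6 months had the lowest ratio or the next to lowest, and a fold among the lowest 2, at each of the regions on chromosomes 19, 17 and 6.

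Another of these sites was 2172 bp wide. On chromosome 9, 32265566 to 32267737, the ratios were 7.34 and 12.3 for the 6-month pair, 4.90 and 6.54 for the 15-month pair, and 5.31 and 7.89 for the 21-month pair, with folds from 86.3 to 450. A neighbour at 32198100 to 32198506 had a peak in 5 mice and was a member in 2. One site, on chromosome 9, 88435010 to 88435364, had a fold of 39.98 in replicate 1 at 15 months and no peak in any other mouse. This site, the broad one with its neighbour, the chromosome 2 site at 98492598, the group at the far end of chromosome 9 and other sites in 4 or 5 mice outside the 3 highest were picked with their values in view.

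Members were unevenly placed along the genome. Chromosomes 8 and 1 held 104 and 102 of the 456 regions, or 22.8% and 22.4%, whereas 5.34% and 8.46% of all autosomal peaks lay on them. Joining regions up to 500 kb apart gave 19 clusters of at least 3 regions, with 276 regions in all. Of these, 8 clusters held at least 10 regions each, together 233 regions (51.1%) within 2948 kb. The limits of 3 and 10 regions were chosen after seeing the data, so the clusters carry no test.

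The cluster with most regions was on chromosome 8, 19745722 to 21323704, with 77 regions and 112 member peaks. The lists held 22 and 28 of these peaks at 6 months, 12 and 19 in the 15-month mice, and 21 and 10 at 21 months. Both 6-month mice were above all others, at the closest by 22 against 21, and the ranges of the other ages overlapped. All peaks of the stretch, with no limit, numbered 57 and 92, 49 and 63, and 71 and 49 in the same order. By that count the 6-month mice were not both above the others. Pairs of ages cannot be tested with 2 mice each. Of the 77 regions, 56 were found in 1 list alone. Ratios were modest, from 5.01 to 22.02, with a median of 6.74, and the median fold was 2.33. Members were 29.4% of the 381 peaks in this stretch, so most TRα peaks there stayed under the limit. In the deposited annotation the nearest named genes were Gas6, a ligand of receptor kinases, with a peak 6176 kb before it, and Atp7b, a copper transporter, with a peak 1187 kb after it. Of 88 protein-coding genes between those genes in the GRCm38.p6 gene order, used for neighbours only, 53 were defensin genes, a family of small antimicrobial peptides that has grown by duplication. How many of them lie inside the cluster was not analysed here. Defensins were the only family counted by name. By the commonest name stem of the coding genes, the count for this cluster was 28 (Defa). It was 9 of 122 (Ugt) for both clusters of chromosome 1. For the clusters of chromosome 17 from 13524984 and from 40154091 it was 3 of 30 (Slc) and 46 of 207 (Olfr). For the chromosome 4 group from 118404412 it was 13 of 145 (Olfr), and the rest had no count.

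A second cluster on chromosome 8, 55566803 to 55831784, held 25 regions and 55 member peaks, with 10 and 10 for the 6-month pair, 5 and 7 for the 15-month pair, and 11 and 12 for the 21-month pair. Both 15-month mice were below all others, and the number of mice is too small for a test between 2 ages. Here 94.8% of all peaks passed the ratio limit, and ratios ran from 5.11 to 25.7. Without the limit, the peaks in this stretch numbered 11 and 12, 5 and 7, and 11 and 12. The 15-month lists were low in all peaks of the stretch and not in members alone.

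On chromosome 6, 47630626 to 47742363, 33 regions lay within 112 kb, and every one of the 44 peaks in this stretch was a member. The lists held 1 and 16 for the 6-month pair, 3 and 9 for the 15-month pair, and 6 and 9 for the 21-month pair, with ratios from 5.07 to 17.2. The mice of 6 months were the lowest and the highest of all. On chromosome 7, 59378591 to 59535907, 21 regions held 49 member peaks, with 7 and 9, 11 and 7, and 6 and 9 in the same order. This cluster recurred more, with 5 of 21 regions in at least 4 lists and 61.2% of its member peaks at q of at most 0.05. Its folds reached 5.73, the highest among the 8 clusters of at least 10 regions.

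Chromosome 1 had a pair of clusters with ratios just above the limit. In the first, 84940357 to 85545480, 29 regions held 35 members of 271 peaks (12.9%), with a highest ratio of 10.3. In the second, 88141515 to 88235741, 23 regions held 24 members of 28 peaks (85.7%), none of them with q of at most 0.05. The second cluster had 8 and 5 members at 6 months, 6 and 0 in the 15-month mice, and 2 and 3 at 21 months. Both had nearly all regions in a single list, 24 of 29 and 22 of 23.

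The start of chromosome 11, 3051252 to 3149966, held 11 regions with ratios from 10.5 to 72.4 and folds from 1.48 to 2.22. Of its 14 member peaks 7 were in replicate 1 at 6 months, 0 in replicate 2 for the 6-month pair, 1 and 1 for the 15-month pair, and 4 and 1 for the 21-month pair. Replicate 1 at 6 months had most here, the reverse of the block on chromosome 9. In all, 42 regions on 8 chromosomes started in the first 200 kb after position 3 Mb, where assembled sequence begins. Such peaks were 10.2% to 17.1% of the members per mouse and 0.0599% to 0.0881% of the other autosomal peaks.

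**Figure D4:**
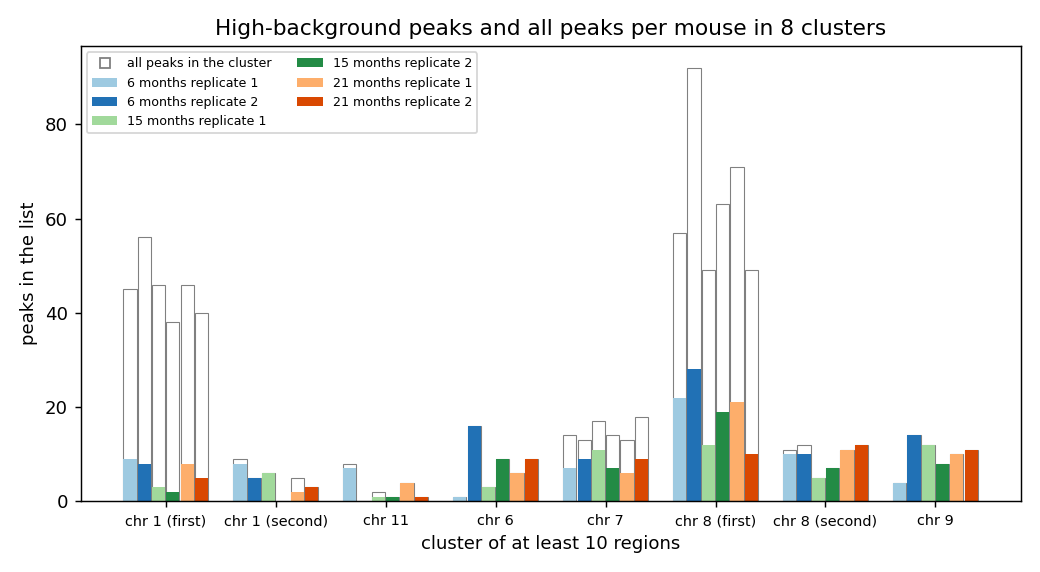
Number of high-background peaks (coloured bars) and of all peaks (open bars behind them) per mouse in the 8 clusters of at least 10 regions. The first cluster of chromosome 8 holds 10 to 28 members per mouse; in the chromosome 6 and chromosome 9 clusters every peak is a member, so no open bar shows.

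The 180 regions outside clusters of at least 3 had a median ratio of 6.74 and included all 19 regions of high fold. Several recurred well above the limit. On chromosome 12, 119992419 to 119992701, the ratios were 108 and 61.9 at 6 months, 78.3 and 82.3 in the 15-month mice, and 66.8 in replicate 2 at 21 months, with no peak in replicate 1. Folds there were 2.98 to 6.52. On chromosome 11, 108902545 to 108902840, 5 mice had ratios from 64.9 to 82.0, and on chromosome 6, 29747923 to 29748547, 5 mice had 63.8 to 80.7. On chromosome 18, 90620346 to 90620712, 5 mice had 33.1 to 55.6. The mouse without a peak was not the same in all 4 regions.

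Most regions were found in 1 mouse as high-background peaks. A member peak was present in 1 list for 313 regions (68.6%), in 2 for 62, in 3 for 35, in 4 for 20, in 5 for 14 and in 6 for 12. Of the 313, 122 had a peak of lower ratio in at least 1 other mouse. Over all 456 regions, 27 had a peak of some ratio in every mouse, out of 105 such autosomal regions in all. Among all autosomal regions 0.0241% had a peak in every mouse and 6.36% in at least 2. Replicate 2 at 6 months contributed 96 of the single-list regions, and each other list 36 to 49. Of the 14 regions in exactly 5 lists, 7 lacked replicate 1 at 6 months.

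In each of the 6 mice, a larger share of the high-background peaks than of the other autosomal peaks lay at a peak of another mouse. Members were chosen on the background of their own list, so overlap with peaks of another mouse was not used by the rule. Of the members, 72.8% and 71.4% for the 6-month pair, 73.9% and 78.0% for the 15-month pair, and 79.1% and 77.6% for the 21-month pair were overlapped by a peak of at least 1 other mouse. Over all autosomal peaks the shares were 13.2%, 12.4%, 11.8%, 16.3%, 12.3% and 12.8% in the same order. Averaged over the other 5 mice singly, 40.3% ± 4.30 (SD, n = 6 mice) of members and 3.14% ± 0.553 (SD, n = 6 mice) of other autosomal peaks were overlapped.

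The difference was 37.1 ± 3.96 percentage points (SD, n = 6), and it was positive in 6 of 6 mice (two-sided exact sign-flip permutation p = 0.03125, adjusted 0.0938 over 3 tests). This is the smallest p that 6 mice allow, and it does not pass a threshold of 0.05 after adjustment. Members also had the higher median pileup, 18 to 28 fragments against 4 or 5, and its part in the recurrence was not tested. Lists overlap each other in both directions, so the 6 values are not fully independent. Among peaks with a deposited -log10 q of at least 1.3 alone, the difference was 45.6 points. Counting only members outside clusters of at least 3 regions (also added later), it was 45.0 points.

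**Figure D5:**
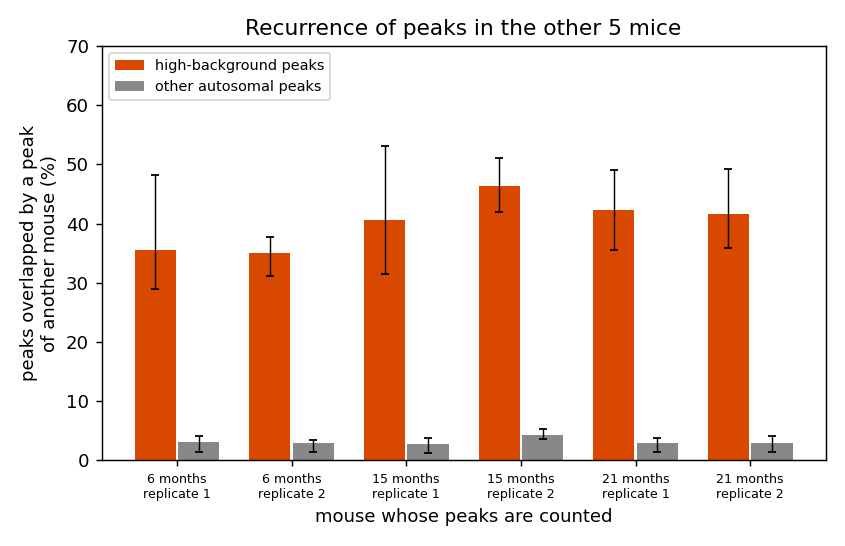
Percentage of a mouse's peaks overlapped by a peak of another mouse, as the mean over the other 5 mice, with lines from the lowest to the highest of the 5. High-background peaks lie at 35.1% to 46.4% and the other autosomal peaks at 2.76% to 4.25%.

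No trend of the share of high-background peaks with age was detected. Members were 0.150% and 0.195% of autosomal peaks at 6 months, 0.117% and 0.351% in the 15-month mice, and 0.128% and 0.165% at 21 months. The 15-month mice were the lowest and the highest. The high value of replicate 2 at 15 months went with the shortest list, 28491 autosomal peaks, and not with more members. Pearson's r with age was -0.08 (two-sided exact permutation p = 0.889, adjusted 0.889 over 3 tests) while the rank correlation, Spearman's rho, was -0.24 (exact permutation p = 0.711). Without the 2 mice of 6 months, farthest from the median age, r was -0.46. Between 2 ages the smallest p is 0.333, so pairs of ages were not tested. As counts, the means were 155 ± 58.0 members for the 6-month mice, 105.5 ± 7.78 for the 15-month mice and 122 ± 17.0 for the 21-month mice (SD, n = 2 each).

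No larger overlap between mice of the same age was detected. The Jaccard index, the bases in both lists as a percentage of those in either, reached 16.9% ± 2.13 (SD, n = 3) in pairs of one age, and 17.0% ± 3.31 (SD, n = 12) in pairs of unlike age. The difference was -0.03 points (one-sided exact permutation p = 0.467 over 15 pairings, adjusted 0.7 over 3 tests). The smallest p of this design is 0.0667.

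Regions with a high-background peak in both mice of one age and no peak in the other 4 were 6 of 44 with a member in both for the 6-month pair, 2 of 37 for the 15-month pair and 5 of 44 for the 21-month pair. Of all autosomal regions where the 2 mice of one age each had a peak, 72.7%, 53.4% and 70.3% had none in the other 4, in the same order. The highest at 6 months was on chromosome 4, 118405630 to 118405890, with ratios of 112 and 87.7 and folds of 1.51 and 1.98. Next were chromosome 8, 21246535 to 21246889, with ratios of 12.1 and 15.3, and chromosome 3, 9867923 to 9868471, with 14.2 and 6.74. At 15 months the regions were on chromosome 17, 40154091 to 40154567, with ratios of 105 and 94.9, and on chromosome 7, 59417287 to 59417536, with 14.1 and 16.4. At 21 months the highest was on chromosome 8, 55827092 to 55827598, with 17.0 and 16.4, followed by chromosome 6, 47714155 to 47714595, with 13.3 and 10.9, and 47732941 to 47733299, with 9.31 and 11.5.

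These regions lay mostly beside members of other ages. Another region of the chromosome 4 group, in replicate 2 at 15 months, had a ratio of 71.4. The chromosome 17 site was 1 of 3 regions within 5.44 kb, and the others, 40156667 to 40157603 and 40158397 to 40159526, had members in 4 and 3 lists with ratios from 53.3 to 124. The sites on chromosome 8 and those on chromosomes 6 and 7 lay inside the clusters described above. Both mice had q of at most 0.05 at 2 of these 8 regions, 1 mouse at 4 and neither at 2, and the folds of all 8 lay between 1.38 and 5.69.

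The highest single-list regions also lay near members of other mice. In replicate 2 at 6 months, 3018503 to 3018700 and 3017016 to 3017212 on chromosome 9 had ratios of 1955 and 1797, inside the block of that chromosome. In the same mouse 118405057 to 118405257 on chromosome 4 had a ratio of 236, close to the 6-month site on that chromosome.

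Gene names in the deposited annotation were compared with 4 lists of genes. Of these, 0 of 14 thyroid hormone receptor and partner genes, 0 of 13 muscle fibre genes, 0 of 12 markers of other muscle cells and 0 of 9 ribosomal and small structural RNA genes were named at a member. At any peak of the 6 lists, 4, 1, 1 and 0 genes of these lists were named, in the same order, so the counts at members had little or no room to be above 0. Over all autosomal peaks, 0.844% carried annotation text.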

How the data were processed

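TRα ChIP-seq peak lists of 6 mouse gastrocnemius samples, 1 per mouse, were used as deposited, with ages and replicate numbers taken from the labels. Peaks were called for each mouse with MACS2 2.1.1.20160309, per the submitters' processing notes, which also name Trimmomatic 0.36, SAMtools 1.3.1 and both GRCm39 and mm10. Scaffold names in the lists belong to GRCm39. The aligner and the MACS2 options were not given in the sources used here. For each peak the authors deposited a pileup signal in fragments, a fold ratio and −log10 p and q values.

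Background was computed as (pileup + 1)/fold − 1. A Poisson p from pileup and background was within 1% of the deposited p for 100% of the peaks that could be checked in every list. The check covered 111 of 114 and 176 of 196 members at 6 months, and 99 of 111 and 89 of 100 at 15 months. At 21 months it covered 100 of 110 and 118 of 134, so some members in every list were not checked. A high ratio therefore states what the caller used as local background, not a count of input reads. Peaks on chromosomes 1 to 19 with a ratio of at least 5 were kept and merged by 1 bp. Each mouse is 1 replicate, with 2 per age, and peak lists give no total depth. The 3 tests were run over mice with exact permutations and Benjamini-Hochberg adjustment, in Python 3.11.15 with numpy 2.4.6, pandas 2.3.3 and scipy 1.17.1, and were tested on simulated data.

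Alternatives were other ratio limits, the median background as unit, a q filter, other overlap rules, a replicate block and leaving out each mouse. Regions were named by rule: the 12 regions with a member in all 6 lists, the 3 of highest ratio in exactly 5, up to 3 per age found only at that age, the 3 of highest median fold with a member in at least 3 lists, the 3 highest in a single list, any with a gene name (not reported here), and the pair nearest the limit among regions with a peak in all 6 lists. The members and lists were chosen with earlier results of these data known. Peaks on X, Y and scaffolds were left out of the comparisons. Gene order came from RefSeq for GRCm38.p6.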

Additional observations from a re-analysis of the deposited data

Results flagged for a closer look

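Outside the autosomes, 193 peaks of the 6 lists had a background ratio of at least 5, a signal in data that the comparisons do not use. Scaffolds not placed in a chromosome held 164 of them, on 12 scaffolds, X held 16 and Y held 13. Each list held 25 to 43 of them. The highest ratios were 82.3 on X, 25.7 on Y and 866 on a scaffold.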

How the results depend on the processing

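Of the tested comparisons, recurrence stayed positive under every alternative run, from 21.4 points at a ratio of at least 3 to 67.1 at 50. Leaving out a mouse gave 36.1 to 39.3 points with an exact permutation p of 0.0625, the smallest that 5 mice allow. The overlap difference within against between ages changed sign with a ratio of at least 3 (0.39 points), the median background as unit (0.11), counting peaks (1.1) and a background of at least 6 fragments, chosen after seeing the data (0.78). It was -5.22 at a ratio of at least 50. Leaving out a mouse gave -1.44 to 1.23, positive without replicate 2 at 6 or at 15 months. The correlation of share with age was 0.13 at a ratio of at least 50, -0.51 with the q filter (exact permutation p = 0.333), and -0.48 to 0.10 leaving out a mouse, positive without replicate 1 at 21 months. For these changes of sign the cause was not tested. Merged regions numbered 2883 at a ratio of at least 3, 143 at 10, 44 at 50, 157 with the q filter, 233 at 6 fragments, and 360 to 421 leaving out a mouse. Peaks per list had a median of 112.5, and of 572 at a ratio of at least 3, 51 at 10, 27 at 50, 49.5 with the q filter and 70 at 6 fragments. Regions in every list numbered 6 at a ratio of at least 50, and 12 to 19 leaving out a mouse, with 19 without replicate 1 at 6 months. With a replicate block the correlation of share with age was -0.084 (exact permutation p = 0.833). Same-numbered mice correlated in their deviations by -0.56 to 0.23 over 12 regions. With 2 mice per age these deviations mirror each other, and both replicate numbers gave the same values. Whether the numbers pair the mice therefore cannot be told from them. Depth, which the lists do not give, may limit which peaks were called, and 2 mice per age cannot test pairs of ages. With a replicate block added after seeing the data, the overlap difference had an exact permutation p of 0.667 over 6 pairings, and recurrence is compared within each mouse.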
